A study of Mus musculus with 12 samples.

Results

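The 32 genes described here encode the protein folding and quality control machinery of the endoplasmic reticulum (ER). They comprise 15 chaperones and folding factors, 4 sensors and transducers of ER stress, 7 factors of ER-associated degradation (ERAD) and 6 subunits of the protein translocation and glycosylation complexes. They were chosen by gene symbol for these roles, but with earlier results of these data known, so the choice was not blind to the values. All 32 were found among the 55450 gene rows of a count table from mouse kidney.

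The table holds messenger RNA counts for 12 mice, killed at 12 weeks of age, from dissected outer kidney cortex. Groups of 3 were WT mice under INT-747, Tg26 mice under INT-747, WT mice under nicotinamide riboside (NR) and Tg26 mice under NR. Tg26 mice carry a replication-defective HIV provirus under the virus's own promoter and serve as a model of HIV-associated nephropathy. INT-747, or obeticholic acid, activates the bile acid receptor FXR, and NR is a precursor of the cofactor NAD. No untreated mice were analysed here, so each comparison is between genotypes under a treatment or between both treatments. The labels state no dose, route or length of treatment, strain or sex, and the transgene itself was not checked.

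Proteins of the secretory pathway and of cell membranes enter the ER through the Sec61 channel, are glycosylated and folded there, and are sent back to the cytosol for degradation when folding fails. When unfolded proteins accumulate, the sensors Atf6, Ern1 and Eif2ak3 start the unfolded protein response, in which cleaved Atf6 and spliced Xbp1 switch on chaperone and ERAD genes. Cells of the proximal tubule, which make up most of the renal cortex and carry many transporters and endocytic receptors in their apical membrane, rely on this machinery.

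The promoters of chaperone genes are known for the ER stress response element (ERSE), in which the factor NF-Y binds the CCAAT end and Atf6 the CCACG end. It was searched on both strands as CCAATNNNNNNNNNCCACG in the window from 250 bases before to 50 bases after each gene's start, from RefSeq on GRCm38.p6. A window was matched for 26 of the 32 genes, and not for Hyou1, Manf, Atf6, Derl1, Ostc and Sec61a1. An ERSE was present in 9 of these 26 genes (34.6%), compared with 37 of all 27025 genes with a window (0.137%). The 9 genes were 7 of 13 chaperones and folding factors and 2 of 6 ERAD factors, with none among 3 sensors and 4 translocon genes. The elements of these 9 genes are shown, written from CCAAT to CCACG with both ends in capitals. Only exact matches were counted, so elements that differ by a letter or in spacing are missed. Hsp90b1 held a pair of exact matches.
Hspa5: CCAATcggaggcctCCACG
Calr: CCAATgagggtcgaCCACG
Derl3: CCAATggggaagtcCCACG
Hsp90b1: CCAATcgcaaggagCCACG
Hsp90b1: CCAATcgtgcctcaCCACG
Canx: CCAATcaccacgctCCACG
Pdia6: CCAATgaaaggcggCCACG
Dnajc3: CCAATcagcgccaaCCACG
Creld2: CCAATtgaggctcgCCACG
Syvn1: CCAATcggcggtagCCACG

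The related element ERSE-II, searched as ATTGGNCCACG, was present in 2 of the 26 windows and in 12 of the 27025 (0.044%). These are the 2 matches, with both ends in capitals.
Herpud1: ATTGGgCCACG
Dnajb11: ATTGGcCCACG

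The letters TGACGTGG, to which spliced Xbp1 and Atf6 can bind, were present in 0 of the 26 windows and in 0.714% of all windows. The shorter letters CCACG, which every ERSE and ERSE-II includes, were present in 21 of the 26 windows (80.8%) and in 35.5% of all windows. A match of letters is not a measure of binding. The whole windows of 3 genes are given on the strand of the gene, with the ERSE in capitals, for the chaperone that is the usual readout of ER stress (Hspa5, chr2:34771840-34772139, plus strand), for the gene with a pair of elements (Hsp90b1, chr10:86705395-86705694, minus strand) and for a small ER stress-induced factor (Creld2, chr15:88819396-88819695, plus strand). In Hspa5 the exact match ran from base -65 to base -47 relative to the start.
Hspa5: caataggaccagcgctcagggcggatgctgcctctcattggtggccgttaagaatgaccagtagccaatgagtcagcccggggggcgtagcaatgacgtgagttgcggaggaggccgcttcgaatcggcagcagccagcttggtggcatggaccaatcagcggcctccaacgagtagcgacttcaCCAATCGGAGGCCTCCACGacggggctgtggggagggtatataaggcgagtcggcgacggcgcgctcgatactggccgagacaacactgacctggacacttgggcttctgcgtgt
Hsp90b1: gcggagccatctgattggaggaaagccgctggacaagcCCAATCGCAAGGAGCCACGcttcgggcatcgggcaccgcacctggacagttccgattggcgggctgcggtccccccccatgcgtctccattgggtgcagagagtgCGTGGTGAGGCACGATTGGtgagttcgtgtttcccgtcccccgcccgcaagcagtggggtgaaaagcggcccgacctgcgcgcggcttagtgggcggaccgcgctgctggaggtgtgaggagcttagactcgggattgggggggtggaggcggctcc
Creld2: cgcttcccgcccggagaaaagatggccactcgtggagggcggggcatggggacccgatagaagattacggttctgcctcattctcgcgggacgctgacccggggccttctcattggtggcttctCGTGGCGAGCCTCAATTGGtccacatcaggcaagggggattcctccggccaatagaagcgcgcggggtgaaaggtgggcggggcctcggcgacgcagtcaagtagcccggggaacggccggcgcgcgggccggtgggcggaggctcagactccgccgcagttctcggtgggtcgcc

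Total counts per library ran from 22286343 to 28952177. Levels are given in counts-per-million (CPM) scaled by TMM, and 15708 genes that passed a filter on low counts were tested together with edgeR's quasi-likelihood test. All 32 ER genes passed the filter. A gene is called when its Benjamini-Hochberg adjusted p over all 15708 genes was under 0.05, and log2 fold changes carry their standard error (SE). The proximal tubule marker Slc34a1, the phosphate transporter, checked the labelled tissue and was at 5297 to 7955 CPM in all mice. One library stood apart: Tg26 mouse 3 under NR had 5816 Xist counts and 0 counts from Y-linked genes, whereas the other 11 had 1 to 8 Xist counts and 3031 to 5263 Y-linked counts. Main counts are therefore also given with a term for this sex pattern and without this mouse. Only this library has the pattern, so the term fits this 1 library by itself and cannot estimate an effect of sex. Both settings are thus in effect 1 check, and their similar counts are not separate evidence. Tubular injury markers also differed. Their sum ran from 478 to 625 CPM in the 6 WT mice, from 514 to 1074 CPM in Tg26 mice under INT-747 and from 915 to 2290 CPM in Tg26 mice under NR. Single markers did not all follow the sum. In Tg26 mice 1 to 3 under NR, Havcr1 was 59.0, 11.8 and 0.88 CPM and Lcn2 77.2, 14.6 and 0.73 CPM. Mouse 3, with a sum of 1318 CPM, was thus not above the WT mice for these genes. In bulk tissue, fewer cells of a type and less RNA per cell cannot be told apart.

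Per kilobase of exon, the level in the 6 WT mice was highest for P4hb, the protein disulfide isomerase that is also a subunit of prolyl hydroxylase, at 276 CPM per kb. It was followed by Herpud1 at 232, Calr at 193, Pdia3 at 133 and Hsp90b1 at 124 CPM per kb. The ranges over mice of neighbours in this order overlapped for P4hb and Herpud1, for Herpud1 and Calr, for Calr and Pdia3, and for Pdia3 and Hsp90b1. The lowest levels were those of Sdf2l1 at 2.74 and Derl3 at 0.367 CPM per kb. Derl3 thus stayed under 2 CPM in every mouse, and its values are the least precise.

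**Figure D1:**
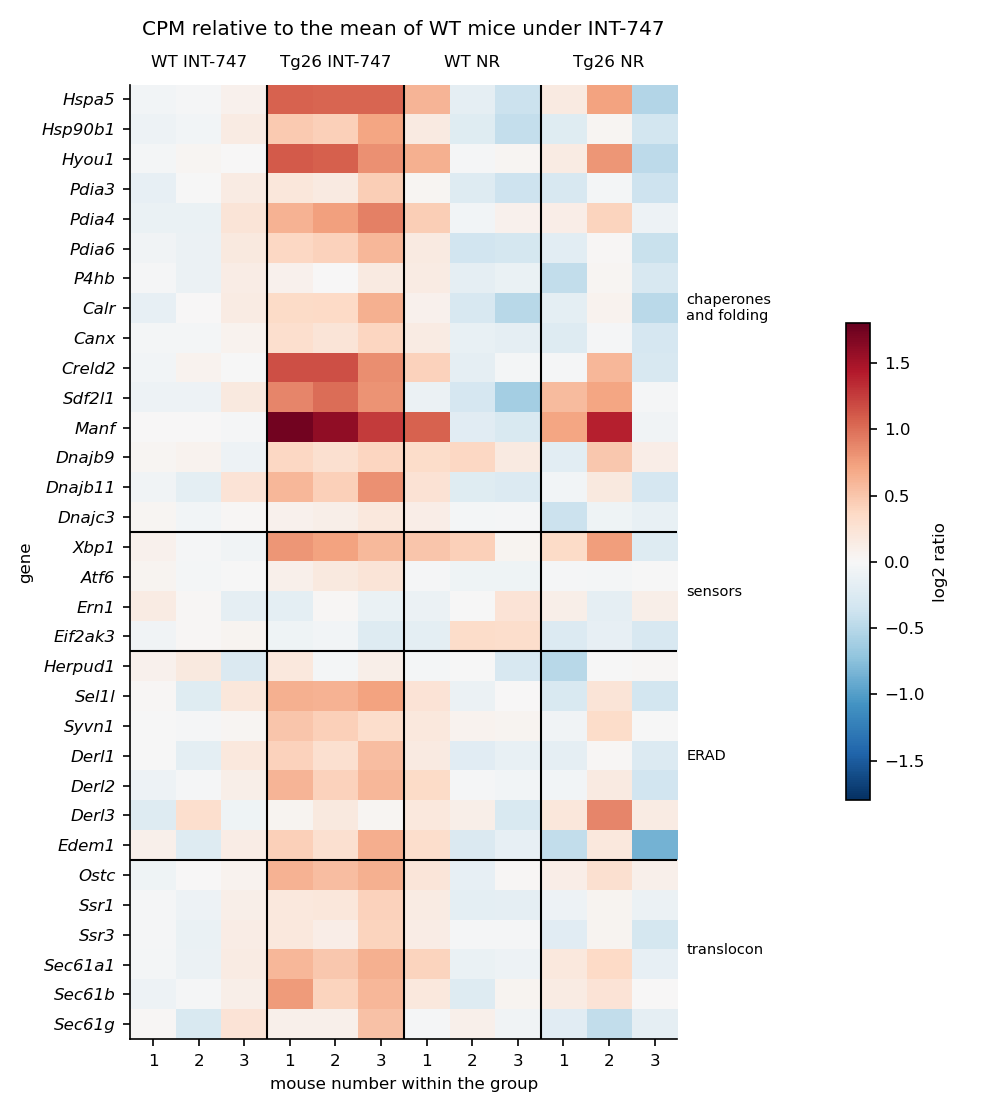
Log2 ratio of CPM in each mouse (columns) to the mean of WT mice under INT-747, for 32 ER genes (rows) grouped by role; red is higher and blue lower. In each of the 3 Tg26 mice under INT-747, 30 of the 32 genes lay above that mean, while the mice under NR ranged from 6 to 26 genes above it.

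The genes were highest together in Tg26 mice under INT-747. The highest of the 12 mice was a Tg26 mouse under INT-747 for 28 of the 32 genes, and for 19 genes all 3 of these mice were above the other 9 mice. How often this holds over all genes was not computed. These counts, and such orders of single genes described below, thus have no background share. Tg26 mouse 3 under NR had the lowest value for 15 genes and WT mouse 3 under NR for 6. Between the lowest and the highest mouse, Manf varied 4.14-fold, Sdf2l1 3.56-fold, Derl3 3.39-fold, Hspa5 3.01-fold and Hyou1 2.99-fold. Atf6 varied 1.25-fold and Ern1 1.34-fold, the narrowest spreads of the 32. The heat map by mouse shows that these differences ran across whole libraries.

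Under INT-747, 30 of the 32 genes were higher in Tg26 than in WT mice, with a median log2 fold change of 0.45, compared with 0.01 over all 15708 genes. All 15 chaperones, all 7 ERAD factors and all 6 translocon genes were on the higher side, and the exceptions were the sensors Ern1 and Eif2ak3. For 25 genes the 3 Tg26 mice lay above the 3 WT mice without overlap, against 12.5% of all genes. The test passed 1 of the 32, Ostc, against 0.267% of all genes, and 22 had an unadjusted p under 0.05, against 2403 of all 15708 genes. With the term for the sex pattern, which lowered the biological coefficient of variation from 0.214 to 0.171, 8 members passed, against 1.2% of all genes. These were Ostc, Derl2, Xbp1, Sdf2l1, Creld2, Pdia4, Hyou1 and Sec61b. Without Tg26 mouse 3 under NR the count was 9, against 1.22% of all genes, and without Tg26 mouse 2 under NR it was 4, against 0.256%. It was 0 without any 1 of the 6 mice under INT-747 and 0 without WT mouse 3 under NR, where the share of all genes called was at most 0.124%.

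Under NR 13 of the 32 were higher and 19 lower in Tg26 mice, with a median log2 fold change of -0.02. This balance moved with the setting: 19 were higher with the sex term (median 0.04) and 21 without WT mouse 1 (median 0.09), but 7 without Tg26 mouse 2 (median -0.14) and 6 with a term for the circadian clock score described further on (median -0.17). None was called (0.0% of all genes were), and p before adjustment was under 0.05 for 3, against 3244 of all 15708 genes. DESeq2 called 1, against 6.16% of all genes, and limma-voom 0. Groups did not overlap for 1 gene on the higher side, against 10.2% of all genes, and for 2 on the lower side, against 9.54%. With the sex term or without Tg26 mouse 3, the 1 gene called was Sdf2l1, a share of the 32 near the 2.16% and 2.08% of all genes called there.

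The difference between treatments followed the same division by genotype. In WT mice, INT-747 against NR gave 15 genes higher and 17 lower with a median log2 fold change of -0.02, and none was called by edgeR, DESeq2 or limma-voom (edgeR called 0.0127% of all genes), with 0 at an unadjusted p under 0.05. In Tg26 mice, 30 of the 32 were higher under INT-747 than under NR, with a median of 0.48 compared with -0.04 over all genes. Groups did not overlap for 23 of them, against 15.4% of all genes. The test passed 8 of the 32, all higher: Hsp90b1, Pdia6, Canx, Creld2, Sel1l, Derl1, Derl2 and Ostc. Over all genes 4.38% were called in either direction and 2.9% on the higher side. The count of 8 moved with single mice. It was 0 without Tg26 mouse 1 or 3 under INT-747, Tg26 mouse 1 or 3 under NR, or WT mouse 1 under INT-747, where at most 0.454% of all genes were called. It was 1 without WT mouse 2 under INT-747 (1.57% of all genes) or WT mouse 3 under NR (1.44%), 2 without WT mouse 2 under NR (2.24%) and 4 without WT mouse 3 under INT-747 (2.62%). It was 22 without Tg26 mouse 2 under NR, against 14.5% of all genes. With the sex term it was 0 of 32, against 0.236% of all genes, with 30 genes still higher and a median of 0.42. This comparison shares the Tg26 mice under INT-747 with the genotype comparison, so the counts of both are not independent.

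The interaction, the genotype difference under INT-747 minus that under NR, was above 0 for 30 of the 32, with a median of 0.48. None passed the test (0.0% of all genes did), with a smallest edgeR adjusted p of 0.239 for Sel1l. Before adjustment p was under 0.05 for 19 of the 32, against 2428 of all 15708 genes. For this contrast limma-voom called 0 and DESeq2 1, against 1.57% of all genes. Without Tg26 mouse 2 under NR edgeR called 3, against 1.09%. Averaged over treatments, 27 of the 32 were higher in Tg26 mice, with a median of 0.21. Of these, 1 was called, Sdf2l1, against 0.446% of all genes. With the sex term or without Tg26 mouse 3 under NR 10 were called, against 7.84% of all genes with that term and 7.63% without that mouse: Xbp1, Sdf2l1, Creld2, Pdia4, Hspa5, Sec61a1, Hyou1, Manf, Ostc and Sec61b. It was 6 without WT mouse 1 under NR, against 2.22%, and 2 without Tg26 mouse 2 under NR, against 1.77%, and 0 without any 1 of the other 9 mice. Averaged over genotypes, 28 were higher under INT-747 than under NR and 0 were called, against 0.427% of all genes. Here p before adjustment was under 0.05 for 18 of the 32, against 2781 of all 15708 genes. For this average limma-voom called 0 and DESeq2 7, against 4.94% of all genes. Under NR, leaving out WT mouse 1 gave 2 calls, against 0.826%, and leaving out Tg26 mouse 2 gave 3, against 2.49%.

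**Figure D2:**
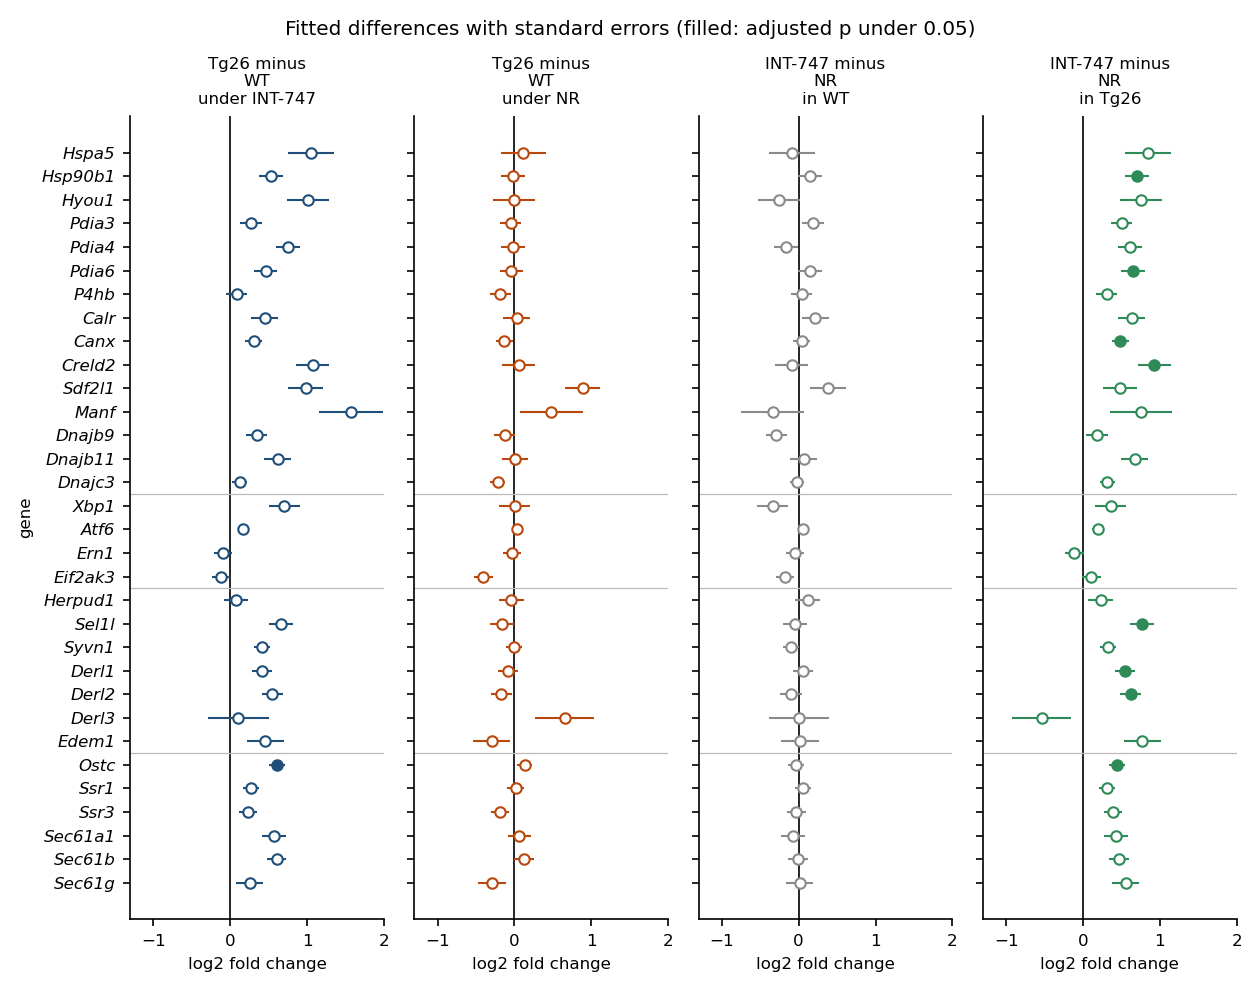
Fitted log2 fold changes (points) with SE (bars) for the 32 genes, grouped by role, in 4 comparisons; filled points had an edgeR adjusted p under 0.05. Under INT-747 30 genes lie right of 0 and 1 is filled, under NR the points scatter on both sides with none filled, and between treatments 30 lie right of 0 in Tg26 mice with 8 filled.

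Among the chaperones, Hspa5 (chr2:34771970-34777547, plus strand, mm10), also known as BiP, is the abundant heat shock protein of the ER lumen that binds unfolded chains and holds the sensors inactive. It was singled out after its values were seen, as were Hyou1 and Manf. Values of a group are given in the order of mouse 1 to mouse 3. Hspa5 stood at 336, 342 and 366 CPM in WT mice and 729, 718 and 716 CPM in Tg26 mice under INT-747. The NR groups had 534, 311 and 265 CPM (WT) and 387, 575 and 242 CPM (Tg26). The 3 Tg26 mice under INT-747 were within a narrow band above all others, whereas under NR both genotypes spread widely, with WT mouse 1 and Tg26 mouse 2 high. The log2 fold change was 1.05 ± 0.30 (SE) between genotypes under INT-747 (edgeR adjusted p = 0.169) and 0.12 ± 0.30 (SE) under NR, so neither passed the test.

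Hsp90b1 (chr10:86690209-86705509, minus strand), the ER member of the heat shock protein 90 family, stood at 495, 505 and 579 CPM in WT mice and 724, 708 and 857 CPM in Tg26 mice under INT-747. Under NR the values were 585, 453 and 390.4 CPM in WT mice and 453, 538 and 417 CPM in Tg26 mice. All Tg26 mice under INT-747 lay above all other mice. Its level rose under INT-747 relative to NR in Tg26 mice, by a log2 fold change of 0.70 ± 0.16 (SE) (edgeR adjusted p = 0.0374). With the sex term none of the 8 genes called in this treatment comparison passed, here or in the paragraphs below. The genotype difference under INT-747 was 0.54 ± 0.16 (SE) and did not pass (edgeR adjusted p = 0.171).

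Hyou1, a large heat shock protein that releases nucleotide from Hspa5, stood at 81.0, 84.7 and 83.5 CPM in WT mice and 178, 175 and 148 CPM in Tg26 mice under INT-747. With NR, WT mice had 130.3, 81.6 and 85.0 CPM and Tg26 mice 92.3, 144 and 59.7 CPM. Manf, a small secreted protein that also binds Hspa5, had the highest log2 fold change of the 32 under INT-747, 1.57 ± 0.42 (SE) (edgeR adjusted p = 0.162), which did not pass. Its level was 18.2, 18.2 and 17.8 CPM in WT mice and 61.2, 55.7 and 43.7 CPM in Tg26 mice under INT-747. In the NR groups the values were 38.2, 15.6 and 14.8 CPM for WT and 29.8, 48.3 and 17.3 CPM for Tg26 mice. The order of mice resembled that of Hspa5 and Hyou1: under INT-747, the Tg26 mice were highest in mouse 1 and lowest in mouse 3, and under NR WT mouse 1 and Tg26 mouse 2 were high. Exons of Manf share positions with annotated neighbours on its strand (Dcaf1 and Rbm15b), so that counts could be split between them.

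Creld2 (chr15:88819646-88826683, plus strand), an ER protein with disulfide-rich domains that is known to be induced by ER stress, was 19.7, 21.3 and 20.5 CPM in WT mice and 46.4, 46.4 and 36.8 CPM in Tg26 mice under INT-747. WT mice under NR had 27.4, 18.2 and 19.99 CPM and Tg26 mice under NR 20.2, 31.4 and 16.6 CPM. It rose in Tg26 mice under INT-747 relative to NR, with a log2 fold change of 0.93 ± 0.22 (SE) or 1.90-fold (edgeR adjusted p = 0.0427), and its 3 Tg26 mice under INT-747 did not overlap with any other mouse. Between genotypes under INT-747 the log2 fold change was 1.08 (edgeR adjusted p = 0.0825), past the threshold with the sex term (edgeR adjusted p = 0.0274). With that term the rise between treatments in Tg26 mice no longer passed.

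Sdf2l1 (chr16:17130138-17132383, minus strand), a partner of Dnajb11 in the complex that passes chains to Hspa5, was higher in Tg26 mice under both treatments. Its level was 3.18, 3.20 and 3.94 CPM in WT mice and 6.69, 7.39 and 6.36 CPM in Tg26 mice under INT-747. Under NR it was 3.15, 2.68 and 2.08 CPM in WT mice and 5.34, 5.92 and 3.37 CPM in Tg26 mice. Genotypes did not overlap under either treatment, also with Tg26 mouse 3 under NR at the low end. Averaged over treatments it rose by a log2 fold change of 0.94 ± 0.16 (SE) in Tg26 mice (edgeR adjusted p = 0.0403). The interaction was 0.10 ± 0.32 (SE) (edgeR adjusted p = 0.895).

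Pdia6 (chr12:17266545-17284770, plus strand), a disulfide isomerase, was 130.4, 127 and 154 CPM in WT mice and 177, 182 and 207 CPM in Tg26 mice under INT-747. The NR groups had 153, 108 and 109.5 CPM (WT) and 119, 138 and 103 CPM (Tg26). Its rise under INT-747 relative to NR in Tg26 mice was 0.65 ± 0.15 (SE) on the log2 scale (edgeR adjusted p = 0.0422). Canx (chr11:50293961-50325673, minus strand), the membrane-bound lectin chaperone that holds glycoproteins during folding, was 427, 425 and 456 CPM in WT mice and 540.1, 512 and 569.7 CPM in Tg26 mice under INT-747. With NR, WT mice had 482, 399 and 389.7 CPM and Tg26 mice 372, 432 and 355 CPM. In both genes every Tg26 mouse under INT-747 lay above every other mouse, and Canx rose by 0.48 ± 0.11 (SE) on the log2 scale between treatments in Tg26 mice (edgeR adjusted p = 0.0397).

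The other 7 chaperones and folding factors had no call in the fit without added terms. The isomerases Pdia4 and Pdia3, the soluble lectin chaperone Calr and the cochaperone Dnajb11 had log2 fold changes of 0.61, 0.50, 0.63 and 0.67 between treatments in Tg26 mice, with groups that did not overlap and edgeR adjusted p of 0.0525, 0.058, 0.0588 and 0.0509. The cochaperones Dnajb9 and Dnajc3 gave 0.18 and 0.32, and P4hb gave 0.31, none of them called. Calr also has an annotated pseudogene, Calr-ps, with which reads could be shared.

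**Figure D3:**
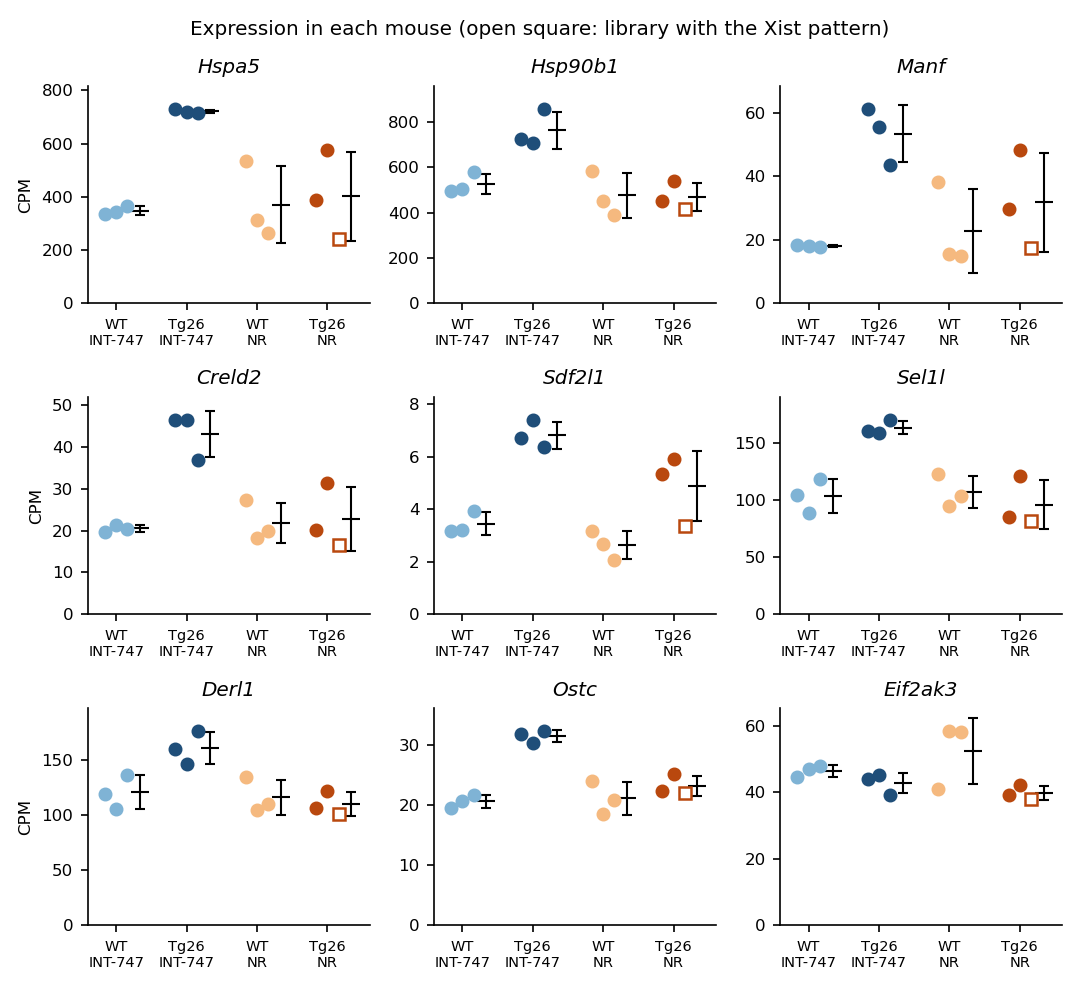
CPM in each mouse (points) for 9 genes, with the mean and SD of each group of 3 mice (black); the open square is Tg26 mouse 3 under NR, the library with Xist counts. For the first 8 genes the 3 Tg26 mice under INT-747 lie above the 3 WT mice under INT-747, while Eif2ak3 has its highest values in WT mice 2 and 3 under NR.

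None of the 4 sensors and transducers was called in the fit without added terms, and under INT-747 2 were higher and 2 lower in Tg26 mice. Xbp1 (chr11:5520659-5525893, plus strand) encodes the transcription factor whose messenger RNA is spliced by Ern1; gene counts do not separate the spliced form. It stood at 83.8, 77.9 and 75.9 CPM in WT mice and 137, 132 and 119 CPM in Tg26 mice under INT-747. In the NR groups the values were 112, 107 and 81.9 CPM for WT and 101, 134 and 67.2 CPM for Tg26 mice. The Tg26 mice lay above the WT mice under INT-747, with a log2 fold change of 0.70 ± 0.20 (SE) (edgeR adjusted p = 0.171), and both genotypes overlapped under NR. With the sex term the genotype difference under INT-747 passed (edgeR adjusted p = 0.0328).

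Atf6, the membrane-bound factor released by cleavage, had log2 fold changes of 0.17 between genotypes under INT-747 and 0.19 between treatments in Tg26 mice, without overlap but not called. Ern1, the kinase and RNase, gave -0.09 and -0.11. Eif2ak3 (chr6:70844515-70905245, plus strand), the kinase that slows translation, was 44.5, 47.1 and 48.1 CPM in WT mice and 44.1, 45.2 and 39.4 CPM in Tg26 mice under INT-747. WT mice under NR had 41.0, 58.5 and 58.3 CPM and Tg26 mice under NR 39.2, 42.1 and 38.0 CPM. It was lower in Tg26 mice averaged over treatments, by a log2 fold change of -0.26 ± 0.09 (SE) that did not pass (edgeR adjusted p = 0.133), and at 0.06 it had the opposite sign with the sex term and the clock score in the fit. Under NR, WT mice 2 and 3 were the highest of all mice, and WT mouse 1 lay among the Tg26 mice.

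Among the ERAD factors, Sel1l and the Derlins Derl1 and Derl2 were called, which belong to the membrane complex through which misfolded proteins leave the ER. Sel1l (chr12:91806043-91849157, minus strand), the adaptor of the ubiquitin ligase Syvn1, was 104, 88.2 and 118 CPM in WT mice and 161, 159 and 169.6 CPM in Tg26 mice under INT-747. Under NR it was 122, 94.9 and 103 CPM in WT mice and 85.1, 121 and 81.3 CPM in Tg26 mice. The 3 Tg26 mice under INT-747 were above all other mice. Between treatments in Tg26 mice it rose by 0.77 ± 0.16 (SE) on the log2 scale (edgeR adjusted p = 0.03), the smallest adjusted p of the 32 in that comparison. The genotype difference under INT-747 was 0.66 ± 0.16 (SE) (edgeR adjusted p = 0.116), with -0.16 ± 0.16 (SE) under NR.

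Derl1 (chr15:57869502-57892448, minus strand) was 119.8, 106 and 137 CPM in WT mice and 161, 147 and 177 CPM in Tg26 mice under INT-747. The NR groups had 135, 105 and 110.0 CPM (WT) and 107, 122 and 101 CPM (Tg26). Derl2 (chr11:71007164-71019841, minus strand) was 29.2, 30.6 and 33.3 CPM in WT mice and 47.5, 41.5 and 47.2 CPM in Tg26 mice under INT-747. With NR, WT mice had 39.4, 30.5 and 29.8 CPM and Tg26 mice 29.8, 34.6 and 24.2 CPM. In both Derlins the Tg26 mice under INT-747 lay above all others, and both rose between treatments in Tg26 mice, by 0.55 ± 0.13 (SE) (edgeR adjusted p = 0.0412) and 0.62 ± 0.14 (SE) (edgeR adjusted p = 0.0377) on the log2 scale. Derl2 overlaps an annotated neighbour, Mis12. The third Derlin, Derl3, went the other way at -0.54 ± 0.38 (SE), from levels of 0.74 to 0.88 CPM against 0.84 to 1.73 CPM, and was not called.

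Syvn1 (chr19:6046576-6053712, plus strand), the ubiquitin ligase, was 48.9, 48.3 and 50.7 CPM in WT mice and 69.6, 66.6 and 61.5 CPM in Tg26 mice under INT-747. In the NR groups the values were 56.4, 51.5 and 50.9 CPM for WT and 47.2, 61.9 and 48.9 CPM for Tg26 mice. Genotypes did not overlap under INT-747, with a log2 fold change of 0.42 ± 0.10 (SE) (edgeR adjusted p = 0.124), and the Tg26 groups of both treatments did, with Tg26 mouse 2 under NR inside the range under INT-747. Averaged over treatments the genotype difference was 0.21 ± 0.07 (SE) (edgeR adjusted p = 0.148). Edem1, which recognises trimmed glycans, gave 0.77 ± 0.24 (SE) between treatments in Tg26 mice and Herpud1, a scaffold of the complex, gave 0.23 ± 0.16 (SE). Neither was called.

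Of the translocon genes, Ostc (chr3:130695912-130709444, minus strand), a subunit of the oligosaccharyltransferase that attaches glycans, was the only 1 of the 32 called in both the genotype comparison under INT-747 and the treatment comparison in Tg26 mice. It stood at 19.5, 20.6 and 21.6 CPM in WT mice and 31.8, 30.3 and 32.2 CPM in Tg26 mice under INT-747. WT mice under NR had 23.9, 18.4 and 20.8 CPM and Tg26 mice under NR 22.3, 25.1 and 21.9 CPM. Within groups the mice differed little, and those of the Tg26 group under INT-747 were above all others. Ostc rose by 0.61 ± 0.10 (SE) on the log2 scale in Tg26 mice under INT-747, or 1.53-fold (edgeR adjusted p = 0.0391), and by 0.44 ± 0.10 (SE) under INT-747 relative to NR in Tg26 mice (edgeR adjusted p = 0.0393). With the sex term the former passed and the latter did not. Another gene model on the same strand, Gm42998, overlaps it, so its counts may be shared.

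Sec61b (chr4:47474658-47483242, plus strand), the beta subunit of the Sec61 channel, was 19.5, 20.5 and 22.4 CPM in WT mice and 35.7, 27.6 and 31.7 CPM in Tg26 mice under INT-747. Under NR it was 23.8, 17.7 and 21.4 CPM in WT mice and 23.0, 24.8 and 20.9 CPM in Tg26 mice. The Tg26 mice under INT-747 were again above all others. Its genotype difference under INT-747 was 0.61 ± 0.13 (SE) (edgeR adjusted p = 0.083), past the threshold with the sex term (edgeR adjusted p = 0.0446). The channel's pore subunit Sec61a1 gave 0.57 and its gamma subunit Sec61g 0.25 in the same comparison. The subunits Ssr1 and Ssr3 of the translocon-associated protein complex gave 0.27 and 0.24. None of these was called.

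The 9 genes with an ERSE had a median log2 fold change of 0.45 between genotypes under INT-747, with 9 of 9 higher, and the 17 genes with a window and no ERSE had a median of 0.35, with 15 of 17 higher. Between treatments in Tg26 mice the medians were 0.63 and 0.47, with 4 of 9 and 2 of 17 called. The 4 were Hsp90b1, Canx, Pdia6 and Creld2. These values describe the same mice and were not tested against each other.

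Other genes of the same machinery, in lists that leave out the 32, were read from the same fit. Between treatments in Tg26 mice, where 4.38% of all genes were called and 2.9% on the higher side, the test passed 3 of 22 other folding factors, all higher, among them Erp44, a thiol-dependent retention factor, at a log2 fold change of 0.76, Ganab, the catalytic subunit of glucosidase II, at 0.42, and Mesd, a chaperone of lipoprotein receptors, at 0.39. It passed 2 of 25 other ERAD factors, Edem3 at 0.48 and Ubxn4 at 0.44, both higher. It passed 4 of 35 other translocon and glycosylation factors, all higher, including Sec11a, a signal peptidase subunit, at 0.77, Rpn1 at 0.53 and Magt1 at 0.50, which belong to the oligosaccharyltransferase. Of 19 further genes of the stress pathways 1 passed, Mbtps1, the protease that cleaves Atf6, at 0.34, a share near that of all genes. In the comparison of genotypes under INT-747 none of these lists had a call, with 7 of 22, 5 of 25, 17 of 35 and 4 of 19 genes at an unadjusted p under 0.05, and medians of 0.18, 0.17, 0.24 and 0.07. Over all genes 2403 of 15708 had such a p, a share near those of 5 of 25 and 4 of 19. Under NR, 24 of the 25 other ERAD factors were lower in Tg26 mice, with a median of -0.16 and none called.

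Mice also differed in the phase of circadian genes. A clock score was formed by subtracting the mean log2 CPM of 4 genes of 1 phase (such as Arntl) from that of 10 genes of the other (such as Dbp and Per2). It was -0.11 to 0.74 in WT and 2.21 to 3.06 in Tg26 mice under INT-747. Under NR it was 2.96, 0.22 and -0.40 in WT mice and 2.73, 3.36 and 0.43 in Tg26 mice. The high scores under NR were thus those of WT mouse 1 and Tg26 mice 1 and 2, and the genotypes differed in score without overlap under INT-747. Time of tissue collection is not stated in the labels, and genotype and clock score cannot be told apart under INT-747.

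Slopes on the clock score, estimated within the 4 groups and chosen for description after the data had been seen, were upward for 29 of the 32 genes, with a median of 0.10 log2 units per unit of score. Over all 15708 genes, 8136 slopes were upward. Scores varied most within the NR groups, where WT mouse 1 and Tg26 mouse 3 stood apart, so the slopes rest largely on these mice. The slopes were called for 4 of the 32 genes, against 0.809% of all genes called upward. Among these 4, Manf had the steepest slope at 0.43 ± 0.05 (SE, edgeR adjusted p = 0.00183), followed by Hspa5 at 0.32 ± 0.04 (edgeR adjusted p = 0.0076), Hyou1 at 0.27 ± 0.05 (edgeR adjusted p = 0.0226) and Sec61a1 at 0.15 ± 0.03 (edgeR adjusted p = 0.0321). With the sex term as well, Manf alone was called at 0.43 ± 0.06 (edgeR adjusted p = 0.0169), against 0.0828% of all genes.

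**Figure D4:**
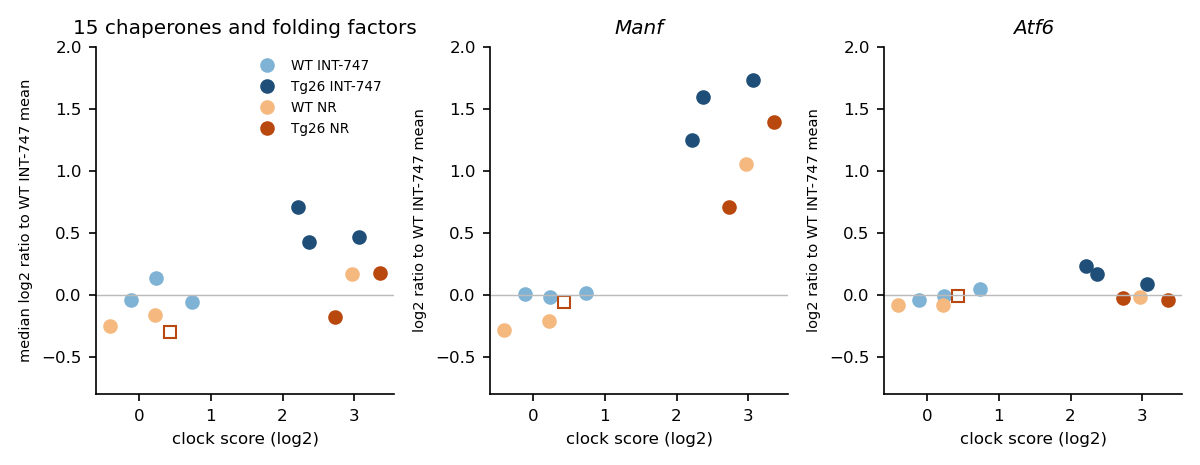
Clock score of each mouse against the median log2 ratio of the 15 chaperones and folding factors, and against Manf and Atf6, all relative to the mean of WT mice under INT-747; points are mice, and the open square is Tg26 mouse 3 under NR. Manf was above the reference in all 6 mice with a score over 2, while Atf6 stayed within 0.24 log2 units of it throughout. The median of the 15 genes was above the reference in these mice except Tg26 mouse 1 under NR, which had -0.18 at a score of 2.73.

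With the clock score in the fit, the median over the 32 genes between genotypes under INT-747 was 0.24 in place of 0.45, with 29 higher and 0 called (0.0127% of all genes). Between treatments in Tg26 mice, where all scores but that of mouse 3 under NR were high, the median was 0.45 in place of 0.48, with 30 higher and 18 called, against 8.26% of all genes. With both the clock score and the sex term these were 0.23 with 0 called (0.0382% of all genes) and 0.46 with 12 called (4.03%). Between genotypes under NR the medians were -0.17 with the clock score and -0.16 with both terms, with 6 and 5 of the 32 higher and 0 called. Under this last fit Hspa5 had a log2 fold change of 0.42 ± 0.18 (SE) between genotypes under INT-747 and 0.74 ± 0.14 (SE) between treatments in Tg26 mice, the latter called (edgeR adjusted p = 0.0311).

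Markers of other cells moved as well. Plasma cells, which hold much ER, were followed by 14 markers of plasma and B cells, of which 10 passed the filter. Their summed level under INT-747 was 76.3, 88.9 and 73.5 CPM in WT mice and 193, 233 and 85.4 CPM in Tg26 mice. Under NR it was 183, 41.6 and 30.9 CPM in WT mice and 359.8, 445 and 25.0 CPM in Tg26 mice. WT mouse 1 and Tg26 mouse 2 were thus high and Tg26 mouse 3 low under NR, as they were for Hspa5. Other mice did not match: Tg26 mouse 1 under NR had a high sum with Hspa5 at 387 CPM. Tg26 mouse 3 under INT-747 had a sum near that of WT mice with Hspa5 at 716 CPM. Of the 10 tested markers, 7 were higher in Tg26 mice under INT-747 (median log2 fold change 0.92) and 10 under NR (1.35), and 10 were lower under INT-747 than under NR in Tg26 mice (-0.64), with 0 called in each. The immunoglobulin chain Igkc, a defining marker, was at 17.4, 22.6 and 20.4 CPM in WT and 59.5, 71.7 and 22.1 CPM in Tg26 mice under INT-747. With NR, it was at 47.8, 7.81 and 3.65 CPM in WT and 113, 142 and 2.07 CPM in Tg26 mice. The summed proximal tubule markers were 38636 to 48501 CPM in Tg26 mice under INT-747 and 17451 to 40384 CPM in Tg26 mice under NR, against 34838 to 47154 CPM in WT mice. The lowest sum was that of Tg26 mouse 3 under NR, the library with Xist counts. There, Slc34a1 at 5559 CPM was below all WT mice. Lrp2 at 1919 and Cubn at 543 CPM were within the WT range, and Slc5a2 at 542 CPM was above it. The part of these cell types in the differences of the ER genes was not tested.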

How the data were processed

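Messenger RNA of 12 kidney cortex samples was sequenced from stranded TruSeq libraries, per the labels' protocols. The deposited values are RSEM expected counts per gene that the authors made, all of them whole numbers and not scaled to library size. The submitters' processing notes name bcl2fastq 2.17, cutadapt 1.18, STAR 2.7.0f, RSEM 1.3.1 and the build mm10, without order or settings. Whether counting used strand is not given in the sources used here, so genes that overlap others are uncertain. All gene rows were found in release M21 of GENCODE, which gave positions and exon lengths; promoter windows came from RefSeq (GRCm38.p6).

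Genes were filtered with filterByExpr, scaled by TMM and fitted in edgeR 4.0.16 (R 4.3.3) with robust quasi-likelihood, 1 mean per group and 8 residual degrees of freedom; 7 contrasts were tested and adjusted over 15708 genes. The labels do not say that the mice are independent beyond their numbering, so p-values measure the spread between these samples. Total counts of 22286343 to 28952177 limit the precision of the rarest gene, Derl3. Library pairs differed by more than sampling noise. Tested on simulated data for the genotype contrast under INT-747, the fit recovered 61% of genes changed 2-fold and 81% of those changed 4-fold, with 7 unchanged genes called.

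All 32 members are named. Values in each mouse are given for members called in any contrast, for the 2 of smallest p per role averaged over treatments, and for 3 singled out later; from the other lists up to 3 called genes are named. Members and lists were chosen with earlier results of these data known. Alternatives were RLE size factors, 2 other filters, a replicate block, a sex term, a clock score, DESeq2 1.42.0, limma-voom (limma 3.58.1) and leaving out each library.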

Additional observations from a re-analysis of the deposited data

Results flagged for a closer look

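Dnajc3, a cochaperone of Hspa5, was flagged because its genotypes did not overlap under either treatment and lay in opposite order. Under INT-747 it was at 166, 156 and 164 CPM in WT mice and 172, 174 and 185 CPM in Tg26 mice. Under NR it was at 177, 158 and 160 CPM in WT mice and 123, 154 and 147 CPM in Tg26 mice. The interaction was 0.34 ± 0.13 (SE) on the log2 scale and did not pass the test (edgeR adjusted p = 0.291).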

How the results depend on the processing

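Counts of called members depended on the setting, and so did the share of all genes called. With no filter 0.238% of all genes were called between genotypes under INT-747. Averaged over treatments the share was 0.458% with RLE size factors, 0.365% with no filter and 0.504% with at least 1 CPM in 3 libraries. Between genotypes under INT-747 the main count was 1; it was 2 with no filter, 0 with the replicate block, 8 with the sex term, 0 with the clock score, 0 with sex term and clock score, 15 in DESeq2, and 0 to 9 when leaving out 1 mouse. Under NR the main count was 0, with 1 under the sex term, 1 in DESeq2 and 0 to 1 when leaving out 1 mouse. Between treatments in Tg26 mice the main count was 8; it was 0 with the replicate block, 0 with the sex term, 18 with the clock score, 21 in DESeq2 and 0 to 22 when leaving out 1 mouse. The interaction gave 0, with 1 in DESeq2 and 0 to 3 when leaving out 1 mouse. For genotype averaged over treatments the main count was 1; it was 2 with RLE size factors, 2 with no filter, 2 with at least 1 CPM in 3 libraries, 0 with the replicate block, 10 with the sex term, 0 with the clock score, 0 with both terms, 0 in limma-voom, 7 in DESeq2 and 0 to 10 when leaving out 1 mouse. For treatment averaged over genotypes the main count was 0; it was 13 with the clock score, 3 with both terms, 7 in DESeq2 and 0 to 3 when leaving out 1 mouse. In WT mice the count between treatments was 0 in every setting run. Over all genes DESeq2 called 3.34% between genotypes under INT-747, 6.16% under NR and 13.8% between treatments in Tg26 mice. It called 1.57% for the interaction, 7.61% for averaged genotype and 4.94% for averaged treatment. The clock score gave 8.26% between treatments in Tg26 mice and 4.24% for averaged treatment (2.57% with both terms). The sex term gave 1.2% between genotypes under INT-747 and 7.84% for averaged genotype.

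For genes named with a test, 343 values under alternatives kept direction and side of the threshold, 105 no longer passed, 33 newly passed and 2 reversed: the averaged genotype difference of Eif2ak3 at 0.0579 with sex term and clock score, and that of Xbp1 at -0.0063 with the clock score. The cause was not tested. Many of the 343 were results not called in the main fit that stayed uncalled. Results called in the main fit passed in only 8 to 13 of 21 alternatives each. The fewest were for Creld2 between treatments in Tg26 mice and Sdf2l1 averaged over treatments, and the most for Sel1l between treatments in Tg26 mice. The labels do not say whether the replicate numbers pair mice. Correlations of same-numbered mice ran from -0.229 to 0.259 and those of other pairs from -0.415 to 0.510, which cannot exclude a pairing. The replicate block moved the count in Tg26 mice from 8 to 0, and what the shared numbers stand for was not tested. Depth limits Derl3, at under 2 CPM.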
